A study of Oncorhynchus mykiss with 70 samples.

Results

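The 3 Testes samples of an expression atlas of adult rainbow trout were set against 14 somatic tissues other than skeletal muscle, for 49 genes of the activin receptor pathway. The Testes samples are 3 of 70 samples, and the somatic side is 42 samples, 3 for each tissue. The members were chosen by sample title: Testes on one side, and on the other every tissue whose title does not hold the word Muscle, without Ovaries. The 14 tissues were Brain, Bulbus Arteriosus, Cardiac Stomach, Distal Intestine, Gill, Head Kidney, Heart, Liver, Pelvic Fin, Pyloric Caeca, Retina, Spleen, Tongue and Visceral Fat, each with the same weight. The 3 Ovaries samples served as a further comparison.

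All fish came from 2 clonal lines, Swanson and Oregon State University. They were 2 to 3 years old, received no treatment, and were male in every group except Ovaries. RNA was extracted with different reagents for different tissues, so extraction and tissue cannot be told apart. The assay, NanoString, counts RNA molecules one by one through probes that carry a colour barcode, with no amplification step. Testes libraries held 127245, 113291 and 132809 counts, inside the range of 56080 to 269554 of the somatic samples. The series' design text calls the replicates biological, and the labels do not say which samples came from the same fish, so p-values measure the spread between these samples. None of 19 markers of germ, Sertoli, Leydig, ovarian, muscle and blood cells was in the panel, so the label of the tissue could not be checked against marker genes. In whole tissue, fewer cells of a type and less RNA per cell cannot be told apart.

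Activins are dimers of beta chains that bind a type II receptor, which then activates a type I receptor and, through it, Smad2 and Smad3. Inhibins pair the same beta chains with an alpha chain and oppose activin at the type II receptor. In the mammalian testis, Sertoli cells secrete inhibin, which lowers the release of follicle-stimulating hormone from the pituitary. Follistatin, the decoy receptor Bambi and the inhibitory Smads limit the signal. Many of these genes occur in trout as pairs of copies, here named by a final 1 or 2.

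The targets of 5 probes are shown because the results turn on them: both inhibin alpha probes, which gave the largest differences, both probes of the activin beta A pair inhbaa, whose copy ratio in Testes lay farthest from the somatic mean, and smad2a2. They are the designed target sequences from the authors' probe list. Capitals mark a run of bases shared by the targets of a pair: the longest for inhab1 and inhab2, 8 bases, and for inhbaa1 and inhbaa2 1 of 9 shared runs of 5 bases, the longest there. Each target is 100 bases long, of which the first 30 are shown for inhab2, without the shared run.
inhab1: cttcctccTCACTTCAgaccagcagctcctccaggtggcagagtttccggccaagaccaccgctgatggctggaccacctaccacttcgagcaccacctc
inhab2: aacctccaaataatacaggacttcattgac
inhbaa2: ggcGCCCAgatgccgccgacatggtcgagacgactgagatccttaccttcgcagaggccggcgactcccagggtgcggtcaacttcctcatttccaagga
inhbaa1: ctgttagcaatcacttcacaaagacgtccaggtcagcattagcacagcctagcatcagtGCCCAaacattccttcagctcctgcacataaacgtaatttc
smad2a2: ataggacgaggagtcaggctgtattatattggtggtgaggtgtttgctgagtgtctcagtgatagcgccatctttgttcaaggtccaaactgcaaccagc
The authors' gene list places inhab1 on chromosome 18, inhab2 on 7, inhbaa2 on 11, inhbaa1 on 15 and smad2a2 on 6, and no genome build is named there. According to that list the inhab1 probe also binds RNA of the inhab2 locus, whereas the inhab2 probe is specific to its own. The list also says that the smad2a2 probe binds RNA of smad2a1. The targets of a pair lie in different stretches of sequence, so a ratio of copies also holds the efficiency of each probe, which was not tested.

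Testes stood apart from the somatic tissues by inhibin alpha RNA. The inhab1 and inhab2 probes were 82.1-fold and 93.7-fold higher in Testes than the mean of the 14 tissues on the log scale. Over the plain mean of scaled counts these probes were 70.8-fold and 79.3-fold higher. Both passed the test under each of 11 ways of scaling the counts, with folds from 23.4 and 26.8 on tbp alone to 227 and 256 on actb alone. With the 3 reference genes actb, ef1a and tbp as the scale, the set also held 5 other genes that were higher in Testes: the activin beta A gene inhbaa2, smad2a2, and the receptor genes acvr2ab2, acvr1ba2 and acvr1ab2. Their sign turned when tbp alone was the scale, and smad2a2, acvr1ba2 and acvr1ab2 were then called lower in Testes. Under the 10 other scalings inhbaa2 and smad2a2 were called higher. The 10 genes that were lower in Testes were gdf11b1, gdf11b2, acvr1ca1, bambia2, smad6a1, smad7b2, acvr1aa1, acvr1aa2, acvr2aa1 and inhbaa1. Their differences were negative under all 11 scalings, but 0 of them were called lower under all 11. With actb alone the log2 difference of acvr1aa1 was −0.04.

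Values below are reference-scaled counts, in which each sample's counts are divided by the geometric mean of its actb, ef1a and tbp counts relative to the average sample. The log2 difference is that between Testes and the mean of the 14 tissues on the log scale, from one edgeR quasi-likelihood fit to all 70 samples. A gene was called at an adjusted p under 0.05, with Benjamini-Hochberg adjustment over the 49 genes. By this test 7 genes were higher in Testes, 14.3% of the 49, and 10 were lower, 20.4%. Together they make 34.7% of the panel, and 23 genes had an unadjusted p under 0.05. The median log2 difference of all 49 genes was −0.12.

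**Figure D1:**
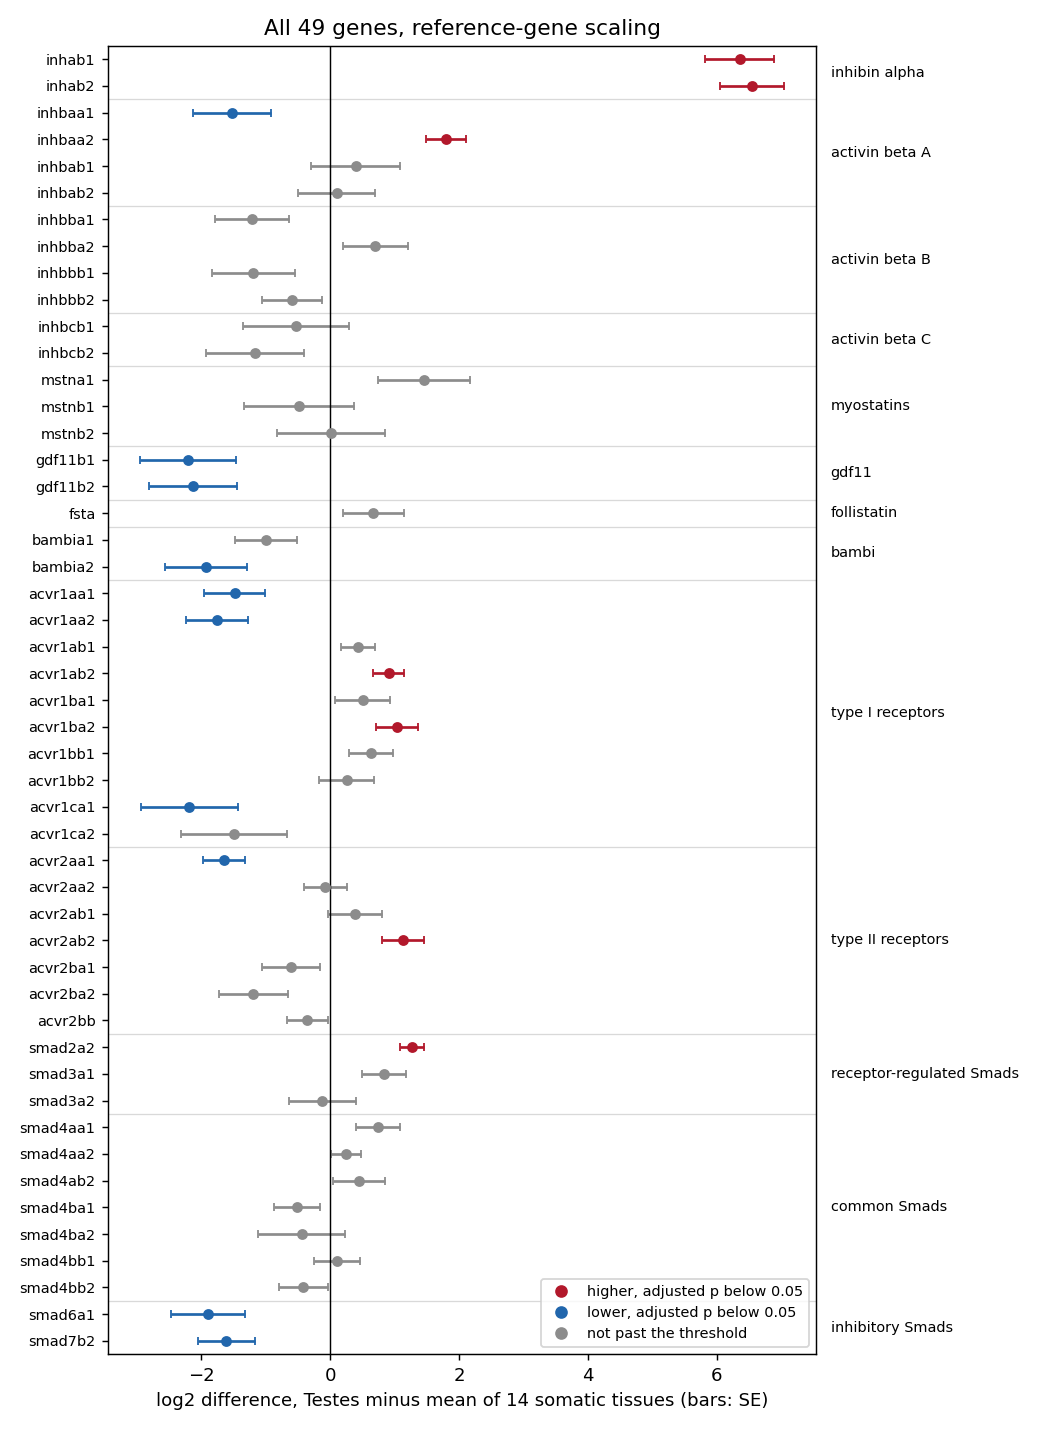
Log2 difference (horizontal axis) of each of the 49 genes, Testes minus the mean of 14 somatic tissues, grouped by gene list, with bars for the standard error. The inhibin alpha probes lie at 6.36 and 6.55, and every other gene lies between −2.21 and 1.80. The 5 other red points change sign with tbp alone as the scale, where smad2a2, acvr1ba2 and acvr1ab2 are called lower. Under the 10 other scalings inhbaa2 and smad2a2 are called higher. The blue points stay below 0 under all 11 scalings, but 0 of them are called lower under all 11.

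The reference genes themselves had another proportion in Testes. tbp, a general transcription factor, gave 4.12, 4.49 and 4.31 counts per 100 counts of actb, a cytoskeletal actin, in the 3 Testes samples, against tissue means of 0.257 in Tongue to 1.04 in Heart. No somatic sample exceeded 1.30, and the Ovaries samples, at 1.32, 1.56 and 3.49, lay between the somatic samples and Testes. The ratios with ef1a lay inside the range of the somatic tissue means. tbp averaged 10.3 counts per 100 of ef1a in Testes and 12.2 in Brain, and ef1a averaged 42.4 per 100 of actb in Testes and 56.0 in Liver. Scaled to the spiked-in positive controls, tbp averaged 869 ± 311 in Testes (SD, n = 3) and 242 ± 163 over the somatic tissues (SD, n = 14), and actb 20049 ± 6678 in Testes and 58831 ± 39268 over the somatic tissues. The number of genes called moved with the scale, and the direction with it. Without tbp, on actb and ef1a, edgeR called 21 genes higher and 0 lower (1 lower at an unadjusted p under 0.05). On actb alone it called 27 higher and 0 lower (0 lower at an unadjusted p under 0.05). On tbp alone 2 were higher and 43 lower, on ef1a and tbp 4 were higher and 22 lower, and on ef1a alone 13 were higher and 2 lower. edgeR's TMM factors gave 18 higher and 12 lower, and the positive controls gave 4 higher and 0 lower (9 and 7 at an unadjusted p under 0.05).

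Across these scalings the median log2 difference of the 49 genes ran from −1.98 with tbp alone to 1.34 with actb alone. Only inhab1 and inhab2 were called higher under all 11 scalings, and 0 genes were called lower under all of them. Of the 32 genes that were not called with the 3 reference genes, 31 changed sign with the scaling, and acvr1ca2 was negative throughout. When each tissue's counts were summed, Testes was a single unit with no replicate, assumed to vary like the 14 somatic tissues. In that fit inhab1 and inhab2 remained called, with log2 differences of 6.07 and 6.33 and an adjusted p of 1.44e-07 each, while 0 other genes were called by edgeR and 4 genes in all, each higher, had an unadjusted p under 0.05.

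**Figure D2:**
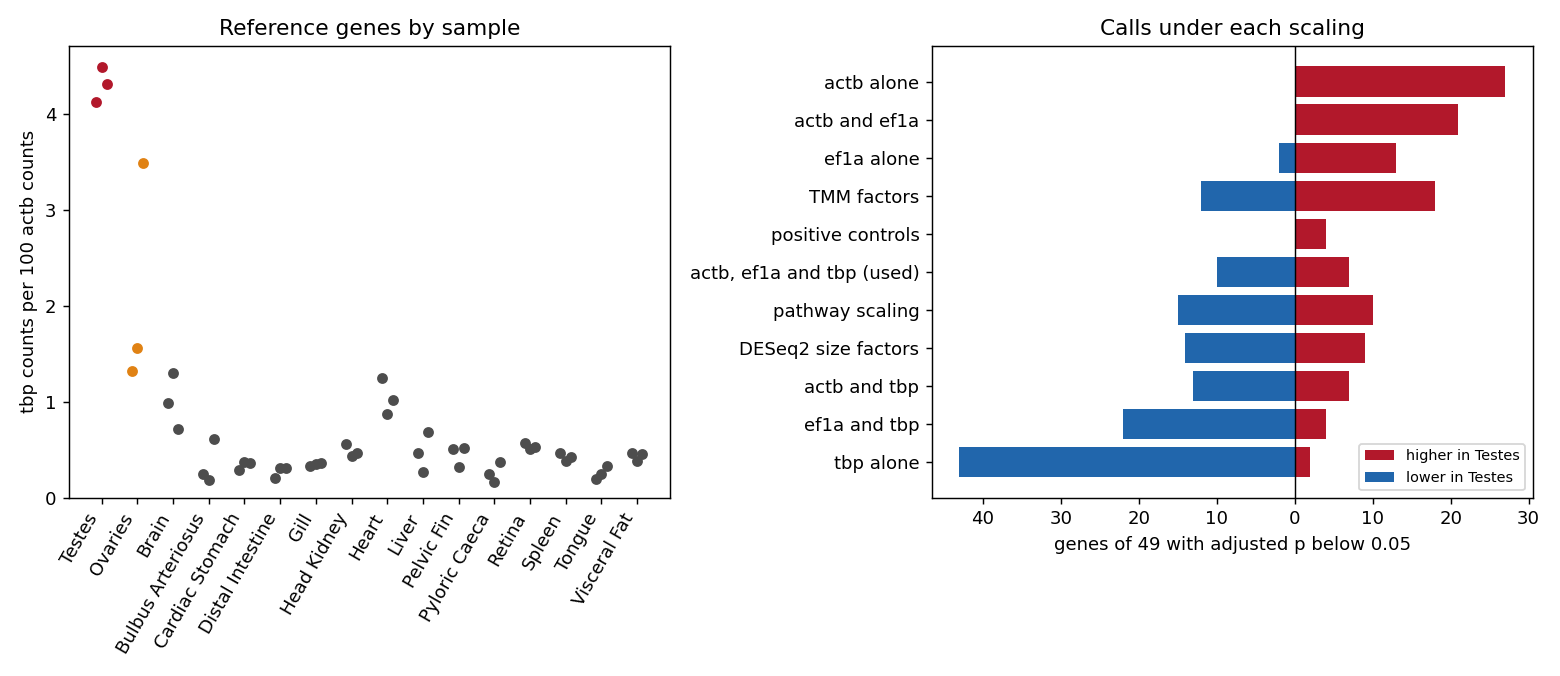
Left, tbp counts per 100 actb counts (vertical axis) in each sample of Testes, Ovaries and the 14 somatic tissues: the 3 Testes samples lie at 4.12 to 4.49, above all others. Right, number of the 49 genes called higher (right of 0) or lower (left of 0) in Testes under each of 11 scalings, from 27 higher and 0 lower with actb alone to 2 higher and 43 lower with tbp alone.

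The inhibin alpha chain turns a beta chain dimer from activin into inhibin. The inhab1 probe (gene LOC100135804) gave 2133, 2542 and 2879 raw counts in Testes, or 1277, 1114 and 1078 reference-scaled counts. Its somatic samples ran from 0.298 to 53.6 scaled counts with a median of 13.4, and the highest tissue mean was 35.9 in Liver. Every Testes sample was thus above all 42 somatic samples, a pattern that 3 of the 49 genes showed, 6.12%. The log2 difference was 6.36 ± 0.54 (SE) with an adjusted p of 4.14e-15.

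The probe specific to inhab2 (LOC110528842) gave 1505, 1893 and 2495 raw counts and 901, 829 and 934 scaled counts in Testes. Somatic samples ran from 0.507 to 37.8 scaled counts with a median of 8.86, and Visceral Fat had the highest tissue mean at 24.0. Here too the groups did not overlap, and the log2 difference was 6.55 ± 0.50 (SE), adjusted p = 1.48e-16. Most of the somatic counts were near the background: inhab2 and inhab1 stood above the detection limit, set at 2 SD over the average negative control of a sample, in 3 of 3 Testes samples each, against 12 and 22 of 42 somatic samples. With the mean of the negative controls subtracted from every count, the log2 differences were 6.90 for inhab1 and 7.53 for inhab2. Against only the 8 somatic tissues that share a scale with Testes in the authors' normalized table, they were 5.91 and 6.18.

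Together both probes took 45.8% of all pathway counts in Testes 1 (95% Wilson interval 44.7 to 46.9), 43.5% in Testes 2 (42.5 to 44.4) and 38.8% in Testes 3 (38.0 to 39.6). These intervals cover counting error only. inhab2 RNA can enter the share through both probes, since the inhab1 probe binds it too. The share averaged 42.7 ± 3.57% in Testes (SD, n = 3) and 0.978 ± 0.545% over the somatic tissues (SD, n = 14), where Spleen had the highest mean, 2.29%. The share does not use the reference genes, and the Testes samples lie far above the highest somatic sample, 3.74%.

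The inhab1 probe also reads inhab2 RNA, and in the authors' deposited table the inhab1 value equals the inhab1 probe minus the inhab2 probe, floored at 0, in 21 of 23 tissues within 0.05. After that subtraction the authors' deposited table gives 478.77 for inhab1 and 1596.86 for inhab2 in Testes, against at most 39.08 and 41.54 in the somatic tissues. From the counts, inhab1 minus inhab2 was 376, 284 and 144 scaled counts in the 3 Testes samples, with a somatic mean of 5.14 and a highest tissue mean of 21.5 in Liver. The difference was positive in every Testes sample and rests on equal efficiency of both probes, which was not tested.

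**Figure D3:**
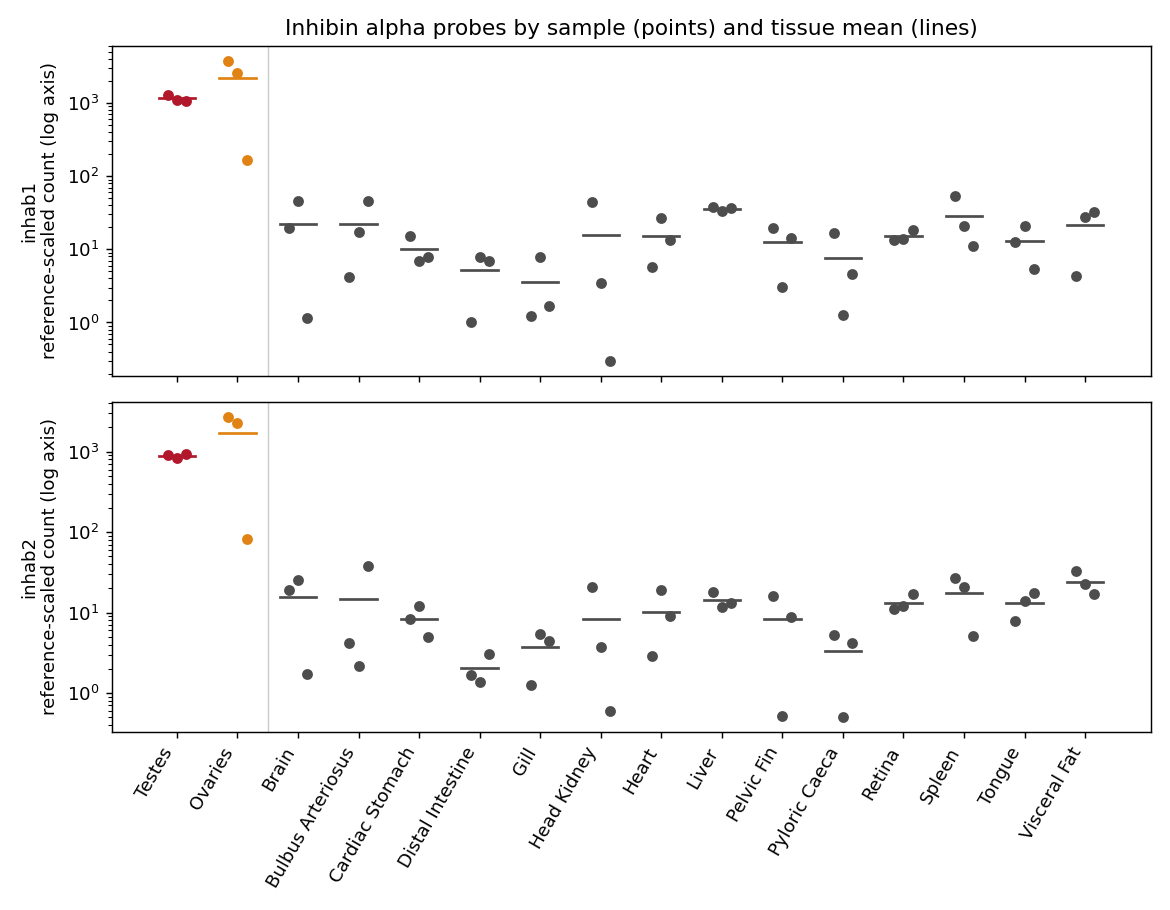
Reference-scaled counts (log axis) of the inhab1 probe (top) and the inhab2 probe (bottom) in each sample of Testes, Ovaries and 14 somatic tissues, with lines at the tissue means. The lowest Testes value is 829, Ovaries 3 lies at 165 and 82.1, and no somatic sample exceeds 53.6.

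Over the means of all 23 tissues, muscle included, the genes whose pattern was most like inhab2 were inhab1 (Pearson r of log2(scaled count + 10) = 0.99), smad2a2 (r = 0.59) and inhbab1 (r = 0.59). Without both gonads, over 21 tissues, mstnb1, mstnb2 and inhab1 had the highest values, 0.94 each, whereas smad2a2 (0.70) and inhbab1 (0.69) ranked 12 and 13. These values describe the pattern, and the tissues share the scaling factors.

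Beta chains form activin alone and inhibin with the alpha chain. Of the 4 activin beta A genes 1 was higher and 1 lower in Testes, against 14.3% and 20.4% of all 49 genes. Their median log2 difference was 0.25 against −0.12 for all genes. inhbaa2 gave 71, 45 and 96 raw counts in Testes, or 42.5, 19.7 and 36.0 scaled counts. Somatic samples ran from 1.29 to 24.3 with a median of 8.91, and the highest tissue mean was 19.1 in Tongue. Testes had the highest mean of the 15 tissues, a pattern shared by 4 of the 49 genes (8.16%), although 3 somatic samples lay above Testes 2. The log2 difference was 1.80 ± 0.31 (SE), adjusted p = 5.06e-06, and it was positive under 10 of the 11 scalings and −0.08 with tbp alone.

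Its partner inhbaa1 gave 8, 6 and 22 raw counts in Testes, in no sample above the detection limit. In scaled counts it was 4.79, 2.63 and 8.24 in Testes, with a somatic range of 2.09 to 67.7 and a median of 15.9. The Testes mean was below all 14 tissue means, as for 6 of the 49 genes (12.2%), and the log2 difference was −1.53 ± 0.61 (SE) with an adjusted p of 0.0411. That call was lost without Testes 1 (−1.47, adjusted p = 0.134), without Testes 2 (−1.21, 0.201) and without Pelvic Fin, its highest tissue (−1.43, 0.0554). It was also lost with the negative controls subtracted (adjusted p = 0.117) and against only the somatic tissues that share a scale with Testes (0.0757). The remaining beta A genes were at background in Testes: inhbab1 had 7, 12 and 13 raw counts and inhbab2 had 12, 10 and 17.

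None of the 4 activin beta B genes was called, and their median log2 difference was −0.89. inhbba2 had the most counts in Testes, 78, 67 and 109, and a scaled mean of 39.0 ± 8.82 (SD, n = 3), against 29.5 ± 18.8 over the somatic tissues (SD, n = 14). inhbba1 had 13, 20 and 43 raw counts and inhbbb2 had 26, 33 and 75. inhbbb1, with 16, 19 and 55 raw counts, had its lowest tissue mean in Testes, 12.8 ± 6.75 against 33.4 ± 21.3 over the somatic tissues, but did not pass the test (adjusted p = 0.139). The activin beta C genes inhbcb1 and inhbcb2, which peaked in Liver among the somatic tissues, had 5, 2 and 17 and 12, 12 and 28 raw counts in Testes. Neither was called.

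Gdf11 is a ligand close to myostatin that signals through the same Smads. Both of its copies were lower in Testes than in every somatic tissue mean. gdf11b1 gave 4.19, 3.51 and 9.74 scaled counts in Testes (7, 8 and 26 raw), against a somatic range of 2.57 to 186 with a median of 22.5 and the highest mean in Cardiac Stomach, 153. The log2 difference of gdf11b1 was −2.21 ± 0.74 (SE), adjusted p = 0.0134. gdf11b2 gave 2.99, 2.19 and 5.62 scaled counts in Testes (5, 5 and 15 raw), with a somatic range of 2.84 to 235, a median of 13.4 and the highest mean in Brain, 127. For gdf11b2 it was −2.13 ± 0.68 (SE), adjusted p = 0.0101. The negative controls averaged 10, 5.25 and 6.88 counts in the 3 Testes samples. gdf11b1 stood above the detection limit in Testes 3 alone and gdf11b2 in no Testes sample, so the size of these differences is limited by background. With the negative controls subtracted both calls were lost (adjusted p = 0.9997 for gdf11b1 and 0.0744 for gdf11b2). Without Testes 1 the adjusted p was 0.0897 for gdf11b1 and 0.0622 for gdf11b2, and without Testes 2 it was 0.0956 and 0.0852.

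The myostatins, ligands that restrain muscle growth, were not called. The mstna1 probe, which binds both copies of that gene, gave 71, 105 and 194 raw counts in Testes and a scaled mean of 53.7 ± 16.5 (SD, n = 3), against 30.4 ± 36.9 over the somatic tissues (SD, n = 14), and only Brain had a higher mean (148). Its log2 difference was 1.46 ± 0.72 (SE), adjusted p = 0.10. mstnb1 (6, 9 and 23 raw counts) and mstnb2 (7, 5 and 18) were at background in every Testes sample.

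Follistatin binds and neutralises activin. The fsta probe gave 35, 29 and 54 raw counts in Testes, or 21.0, 12.7 and 20.2 scaled counts, against a somatic range of 1.58 to 61.1 with a median of 9.94, and was not called (log2 difference 0.67 ± 0.47, SE). Bambi is a receptor without a kinase that competes for ligand complexes. bambia2 was lower in Testes, with 1.80, 6.13 and 8.99 scaled counts (3, 14 and 24 raw), against a somatic range of 5.21 to 77.7 and a median of 22.1. Its log2 difference was −1.93 ± 0.63 (SE), adjusted p = 0.0118, which became 0.111 without Testes 1 and 0.0624 without Testes 2. In Testes bambia2 exceeded the detection limit in Testes 3 alone, and with the negative controls subtracted its adjusted p was 0.092. bambia1 averaged 42.2 ± 7.67 in Testes and 102 ± 63.9 over the somatic tissues and was not called (adjusted p = 0.0934).

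Type I receptors carry the kinase that phosphorylates Smads. Of the 10 genes 2 were higher and 3 lower in Testes, with a median log2 difference of 0.35. Over all 49 genes 14.3% were higher and 20.4% lower, and the median was −0.12. The acvr1b genes encode ALK4, the main type I receptor of activin, and the acvr1a genes ALK2. acvr1ba2 gave 82.0, 95.1 and 114 scaled counts in Testes, against a somatic range of 2.59 to 192 with a median of 40.9. The log2 difference was 1.04 ± 0.32 (SE), adjusted p = 0.00948, and the groups overlapped: 8 somatic samples exceeded all Testes samples. It missed the threshold without Testes 2 (adjusted p = 0.052) or Testes 3 (0.0717), and with the negative controls subtracted (0.0631). With the positive controls, or with ef1a and tbp, it was not called either, and it turned to −0.87, called lower, with tbp alone. acvr1ab2 gave 257, 266 and 360 scaled counts in Testes, against 54.3 to 824 with a median of 143 in the somatic samples. Its log2 difference was 0.91 ± 0.24 (SE), adjusted p = 0.00296, and turned to −0.99, called lower, with tbp alone.

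The acvr1aa copies went the other way from acvr1ab2. acvr1aa2 gave 14.4, 8.32 and 18.7 scaled counts in Testes, against 9.12 to 292 with a median of 49.4 in the somatic samples, and only Pyloric Caeca had a lower tissue mean (12.5). The difference was −1.76 ± 0.49 on the log2 scale (SE), adjusted p = 0.00396. acvr1aa1 was called lower as well (−1.48 ± 0.47, adjusted p = 0.00982), but it had 4, 4 and 8 raw counts in Testes, under the detection limit in every sample, and exceeded that limit in only 9 of 42 somatic samples. Without Testes 2 the adjusted p was 0.0594 for acvr1aa2 and 0.0852 for acvr1aa1. With the negative controls subtracted it was 0.00605 for acvr1aa2, and the call of acvr1aa1 was lost (0.0744).

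ALK7, encoded by acvr1c, is known from mammals for its role in fat cells. acvr1ca1 gave 2.99, 3.07 and 6.37 scaled counts in Testes (5, 7 and 17 raw), against 1.19 to 1317 with a median of 10.7 in the somatic samples. Visceral Fat had a mean of 798. The log2 difference was −2.19 ± 0.75 (SE), adjusted p = 0.015. It was −1.77 without Visceral Fat (adjusted p = 0.0519), and the adjusted p was 0.0912 without Testes 1 and 0.0956 without Testes 2. With the negative controls subtracted the call was lost too (adjusted p = 0.092). acvr1ca2 had 4, 3 and 16 raw counts in Testes and was not called. The remaining type I receptor genes, acvr1ab1, acvr1ba1, acvr1bb1 and acvr1bb2, averaged 75.3 to 112 scaled counts in Testes and were not called.

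Type II receptors bind activin first, and inhibin competes for them. Of the 7 genes 1 was higher and 1 lower, with a median log2 difference of −0.35. The shares over all 49 genes were 14.3% and 20.4%, and the median was −0.12. acvr2ab2 gave 100, 92.9 and 105 scaled counts in Testes, against 8.27 to 147 with a median of 42.8 in the somatic samples, and 4 somatic samples lay above all Testes samples. On the log2 scale acvr2ab2 differed by 1.13 ± 0.32 (SE), adjusted p = 0.00509, and −0.76 with tbp alone. acvr2aa1 was lower, with 55.7, 48.6 and 58.4 scaled counts in Testes against 40.9 to 571 and a median of 149. All Testes samples lay below 40 of the 42 somatic samples, and the log2 difference was −1.65 ± 0.33 (SE), adjusted p = 5.08e-05. Its call held without each Testes sample in turn, but was lost with the positive controls (−1.39, adjusted p = 0.128), with actb and ef1a (−0.72, 0.0798) and with actb alone (−0.18, 0.708). acvr2ba1 (11, 38 and 44 raw counts), acvr2ba2 (10, 22 and 46) and acvr2bb (16, 30 and 34) were among the lower-count receptor genes in Testes and were not called, and neither were acvr2aa2 and acvr2ab1.

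Smad2 and Smad3 carry the signal to the nucleus. smad2a2 gave 572, 534 and 578 scaled counts in Testes, all above the 42 somatic samples, which ran from 117 to 458 with a median of 233. Brain had the highest somatic mean, 451, and the Ovaries samples gave 300, 312 and 617 scaled counts. The log2 difference was 1.27 ± 0.19 (SE), adjusted p = 2.53e-07. It remained called in 20 of 22 other settings, was 1.21 with an adjusted p of 0.338 in the fit of tissue sums, where Testes has no replicate, and turned to −0.62 with tbp alone. smad3a1 averaged 391 ± 47.3 in Testes (SD, n = 3) and 259 ± 163 over the somatic tissues (SD, n = 14) and narrowly missed the threshold (log2 difference 0.83 ± 0.35, adjusted p = 0.0544). smad3a2 had 25, 14 and 38 raw counts in Testes.

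Smad4 joins the activated Smads to form the complex that binds DNA. None of the 7 common Smad genes was called, and their median log2 difference was 0.10. smad4aa2 had the most counts in Testes, 244, 327 and 437, with a scaled mean of 151 ± 11.1 (SD, n = 3), against 138 ± 60.3 over the somatic tissues (SD, n = 14). smad4aa1 had the largest difference, 0.74 ± 0.34 (adjusted p = 0.0862), and only Brain had a higher mean. smad4ba2, with 8, 3 and 10 raw counts, was at background.

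Smad6 and Smad7 block receptor signalling, and both inhibitory Smad genes were lower in Testes. smad7b2 gave 20.4, 26.7 and 37.5 scaled counts in Testes, above background in each sample, against 12.8 to 546 with a median of 71.8 in the somatic samples. On the log2 scale smad7b2 differed by −1.61 ± 0.44 (SE), adjusted p = 0.00396, and the call held without each Testes sample in turn. Pyloric Caeca had a lower mean of smad7b2 (18.1) than Testes (28.2). smad6a1 gave 11.4, 7.89 and 28.1 scaled counts in Testes, against 11.9 to 619 with a median of 44.8. It had its lowest tissue mean in Testes, 15.8, close to 16.6 in Head Kidney. Its log2 difference was −1.90 ± 0.57 (SE), adjusted p = 0.00797, which became 0.0622 without Testes 1 and 0.0852 without Testes 2. Bulbus Arteriosus had the highest mean of both genes, 479 for smad7b2 and 316 for smad6a1. With the scale of actb and ef1a the differences were −0.68 and −0.96 and neither was called. Low levels were not particular to Testes: by the same edgeR fit smad7b2 was called lower in Ovaries too (−1.31, adjusted p = 0.0121). For smad6a1 the difference of Ovaries from the somatic mean was −1.21 (adjusted p = 0.0726). Neither gene was called between the gonads.

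Over all genes, 7 higher and 4 lower were called without Testes 1, 6 and 2 without Testes 2, and 6 and 11 without Testes 3. Testes 2 and Testes 1 were the samples with the lowest counts of several of the genes called lower. After subtraction of each sample's mean negative control, 6 were higher and 4 lower. In Testes 26 of the 49 genes exceeded the detection limit in all 3 samples, 8 in 2, 4 in 1 and 11 in none.

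The ratio of the copies of a pair is taken within each sample, where the reference genes enter only through the pseudocount. Of 21 pairs, 4 had a different ratio in Testes than in the mean of the 14 tissues (19.0%), by limma on the log2 ratio of scaled counts + 10, adjusted over the 21 pairs, and 8 had an unadjusted p under 0.05. In all 4 the ratio of copy 1 to copy 2 was lower in Testes, and in all 4 the Testes mean lay below each of the 14 tissue means. The 4 pairs were inhbaa, inhbba, acvr2aa and acvr1ab. In Ovaries the mean log2 ratios of these pairs were −0.24, −0.62, 0.27 and −1.80, against −1.47, −1.23, −0.45 and −1.83 in Testes. For inhbaa and acvr1ab the Ovaries mean also lay below each of the 14 tissue means, and for acvr1ab it was near that of Testes. The ratios were not tested between the gonads. A test of copy by tissue with edgeR on unscaled counts also called 4 pairs lower and 0 higher. limma on the ratio of unscaled counts called 2 pairs higher and 5 lower.

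The inhbaa log2 ratio was −1.83, −1.23 and −1.33 in the 3 Testes samples, against a somatic mean of 0.35 ± 0.24 (SD, n = 14) with tissue means from −0.04 in Tongue to 0.70 in Visceral Fat. All 42 somatic samples lay above the Testes samples. The shift was −1.81 ± 0.38 (SE), adjusted p = 9.34e-05. Since inhbaa1 was at background in Testes, the ratio is set by the level of inhbaa2 and the pseudocount of 10, and the shift ran from −3.31 to −0.70 over 9 other settings, all of which called it.

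The inhbba log2 ratio was −1.67, −1.07 and −0.96 in Testes, against a somatic mean of 0.10 ± 0.54 (SD, n = 14), and 40 of 42 somatic samples lay above the Testes samples. The lowest somatic tissue was Pelvic Fin, −0.79. The shift was −1.33 ± 0.27 (SE), adjusted p = 7.78e-05, while neither inhbba1 nor inhbba2 was called on its own level. inhbba1 exceeded the detection limit in Testes 2 and Testes 3 but not in Testes 1. Over 9 other settings the shift ran from −1.92 to −0.63, and all of them called it. The acvr2aa log2 ratio was −0.40, −0.28 and −0.68 in Testes, against a somatic mean of 0.94 ± 0.62 (SD, n = 14), with 41 of 42 somatic samples above the Testes samples. The shift was −1.39 ± 0.27 (SE), adjusted p = 7.78e-05, and both copies were above background in all Testes samples. Copy 2 thus had more counts than copy 1 in every Testes sample, while Liver was the only somatic tissue with a mean ratio under 0 (−0.06).

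The acvr1ab log2 ratio was −1.94, −1.88 and −1.68 in Testes, against a somatic mean of −1.30 ± 0.29 (SD, n = 14), and 38 of 42 somatic samples lay above the Testes samples. Among the somatic tissues Pyloric Caeca had the lowest mean ratio, −1.79, close to the −1.83 of Testes. The shift was −0.53 ± 0.18 (SE), adjusted p = 0.0195, and it missed the threshold without Testes 1 (−0.48, 0.156), without Testes 2 (−0.51, 0.116) and with a pseudocount of 1 (−0.51, 0.051). It was also lost with the negative controls subtracted (adjusted p = 0.365). The inhab pair was not called: its log2 ratio was 0.50, 0.42 and 0.20 in Testes, against 0.25 ± 0.27 over the somatic tissues. The largest ratio shifts that missed the threshold were those of smad3a (0.95 ± 0.44) and acvr1aa (0.79 ± 0.32).

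**Figure D4:**
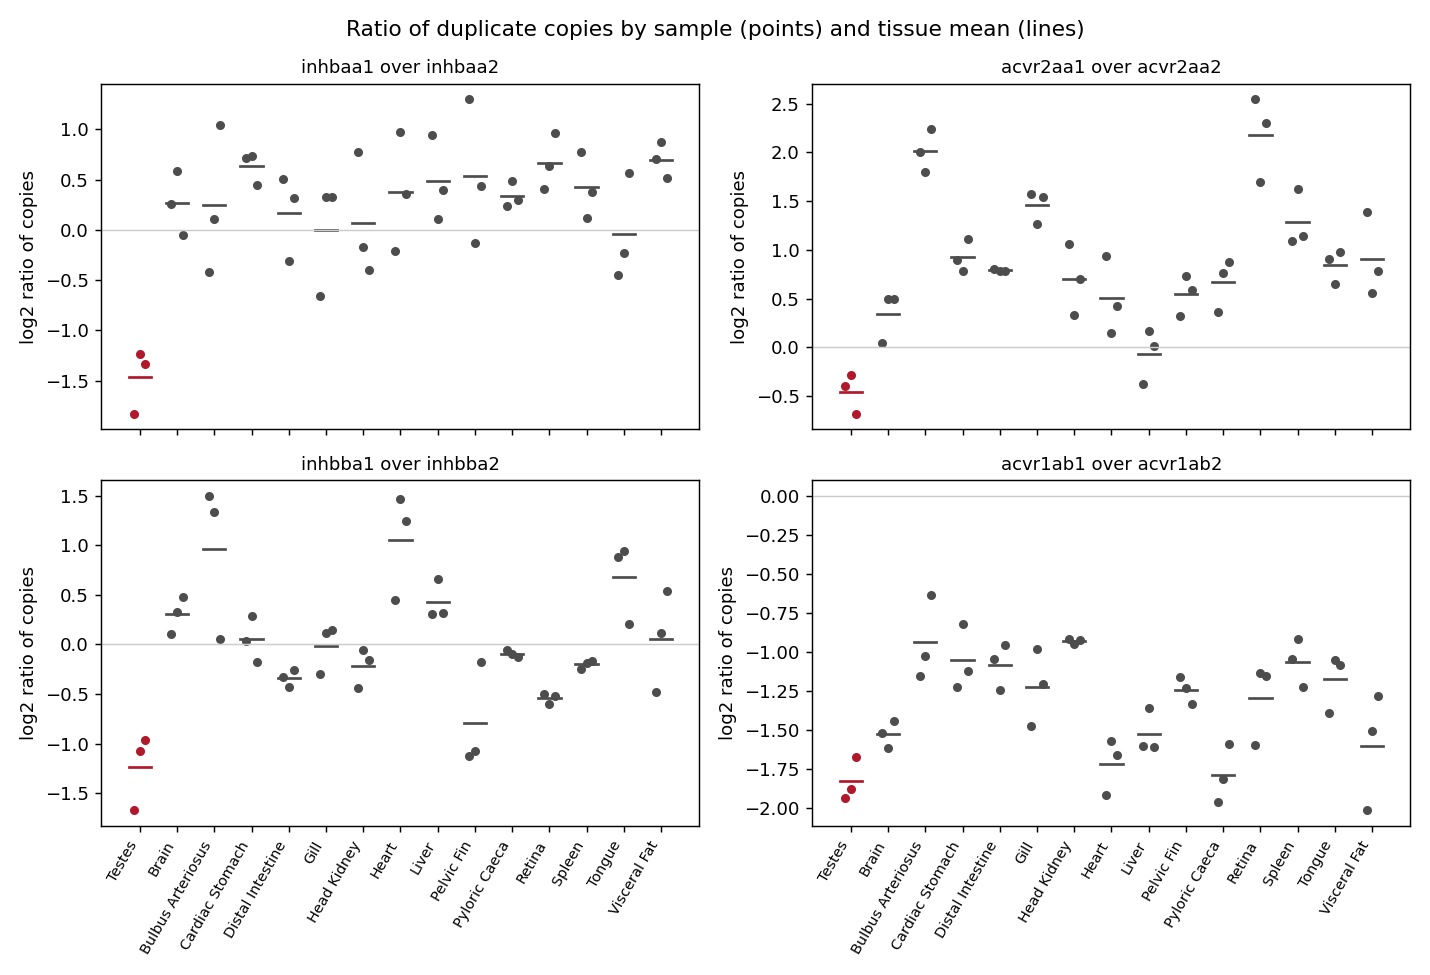
Log2 ratio of copy 1 to copy 2 (vertical axes, from scaled counts + 10) for the 4 pairs past the threshold, in each sample of Testes and of 14 somatic tissues, with lines at tissue means. The Testes mean is the lowest of the 15 tissues in each panel, and the samples are fully apart for inhbaa. Ovaries samples are not shown.

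Inhibin alpha was high in both gonads, and Testes differed from Ovaries in beta chain and receptor genes. After subtraction of the negative controls only acvr1aa1 and acvr1aa2 remained called between the gonads. The inhab1 probe gave 1277, 1114 and 1078 scaled counts in Testes and 3770, 2574 and 165 in Ovaries, and the inhab2 probe gave 901, 829 and 934 in Testes and 2722, 2278 and 82.1 in Ovaries. Ovaries 3 stood apart from its replicates, with 341 raw inhab1 counts against 17796 and 14003. Neither probe was called between the gonads, with log2 differences of −0.91 ± 1.16 and −0.93 ± 1.08 (SE). The 3 Testes samples lay between Ovaries 3 and the other Ovaries samples for both probes. By edgeR, Ovaries was also higher than the somatic mean for smad2a2, acvr1ab2 and acvr1ba2. The log2 differences there were 0.81, 0.94 and 1.15, with adjusted p of 0.000913, 0.00129 and 0.00301, against 1.27, 0.91 and 1.04 in Testes. On the scale of the 3 reference genes their higher level was thus not particular to Testes. None of these genes was called between the gonads, which does not show that their levels were equal.

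By the same edgeR fit 2 genes were higher in Testes than in Ovaries, 4.08% of the 49, and 9 were lower, 18.4%, while 16 had an unadjusted p under 0.05. Higher in Testes were inhbaa2 (42.5, 19.7 and 36.0 scaled counts in Testes, against 16.9, 9.01 and 4.35 in Ovaries) and acvr2ab2 (100, 92.9 and 105 in Testes, against 29.0, 43.6 and 33.8 in Ovaries). Their log2 differences were 1.67 ± 0.51 and 1.48 ± 0.51 (SE), with adjusted p of 0.013 and 0.0239. The samples of the gonads did not overlap for either gene. Neither did they for the uncalled genes smad3a1, smad4aa2, mstna1, acvr1ca1, gdf11b2 and inhbba1, so non-overlap of 3 against 3 samples does not set the called genes apart. Of the uncalled genes smad3a1 gave 350, 381 and 443 scaled counts in Testes, against 175, 206 and 133 in Ovaries. The largest difference was that of the beta A gene inhbab1, with 4.19, 5.26 and 4.87 scaled counts in Testes, at background, against 201, 255 and 2.42 in Ovaries. Its log2 difference was −4.98 ± 1.02 (SE), adjusted p = 0.000243, although Ovaries 3 lay below all Testes samples. Both acvr1aa copies were lower in Testes too: acvr1aa2 had 14.4, 8.32 and 18.7 scaled counts in Testes, against 50.2, 35.1 and 150 in Ovaries, a log2 difference of −2.49 ± 0.59 (SE).

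Each of the 3 acvr2b genes was called lower in Testes than in Ovaries: acvr2ba1 by −2.74 ± 0.61, acvr2ba2 by −2.56 ± 0.67 and acvr2bb by −1.58 ± 0.42 (log2 difference ± SE). Their adjusted p were 0.000573, 0.00361 and 0.00394. In scaled counts acvr2ba1 gave 6.59, 16.6 and 16.5 in Testes, against 37.9, 59.0 and 172 in Ovaries. The authors' list notes that the acvr2ba1 probe also binds RNA of acvr2ba2. The type I receptor acvr1ba1 (−1.88 ± 0.63), the beta B gene inhbbb1 (−2.54 ± 0.82) and the common Smad smad4bb2 (−1.43 ± 0.51) were the remaining genes called lower. Without Ovaries 3, which stood apart, the calls of inhbaa2 (1.33), acvr2ab2 (1.45), acvr1ba1 (−1.41), acvr2ba2 (−1.76) and acvr2bb (−1.14) were lost, at adjusted p of 0.0703, 0.0594, 0.118, 0.0528 and 0.0528. Single samples decided further calls: inhbaa2 was lost without Testes 1 (adjusted p = 0.073), acvr2ab2 without Testes 1 (0.0694), Testes 3 (0.0559) or Ovaries 1 (0.108), and inhbbb1 without Testes 1 (0.0797), Testes 2 (0.0856) or Ovaries 1 (0.154). acvr1ba1 was lost without any 1 of the Testes samples (0.0559 to 0.0797), and smad4bb2 without any 1 sample other than Ovaries 3 (0.055 to 0.545). Subtraction of the negative controls left 0 higher and 2 lower by edgeR, with 2 and 11 at an unadjusted p under 0.05. The calls of all beta chain genes and of the acvr2b genes were among those lost. Splits into higher and lower also moved with the scale, from 4 higher and 5 lower with actb alone, 3 and 6 with actb and ef1a, to 1 and 13 with ef1a and tbp, 0 and 13 with the positive controls and 0 and 18 with tbp alone (0 higher at an unadjusted p under 0.05 with either).

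**Figure D5:**
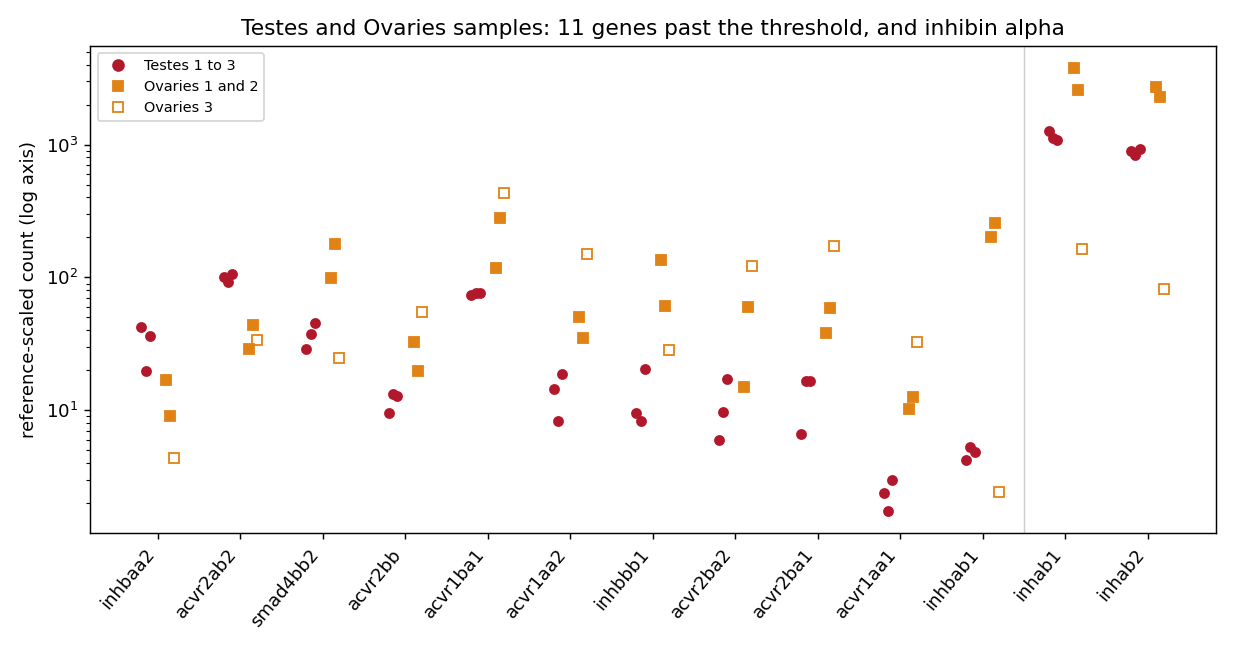
Reference-scaled counts (log axis) of the 11 genes called between the gonads and of both inhibin alpha probes, in each Testes sample (circles) and Ovaries sample (squares, open for Ovaries 3). Testes and Ovaries samples are fully apart for inhbaa2, acvr2ab2, acvr1aa1, acvr1aa2, acvr1ba1, acvr2ba1, acvr2bb and inhbbb1, as they are for some uncalled genes that are not shown. Ovaries 3 lies below the Testes samples for inhbab1, smad4bb2 and both inhibin alpha probes.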

How the data were processed

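The authors deposited raw NanoString barcode counts, whole numbers per probe and sample with no normalization, for 66 probes: 49 pathway genes, 3 reference genes, 6 positive and 8 negative controls. The lowest deposited count was 1. A table of the authors' normalized signal, with replicates pooled to 1 value per tissue, was deposited too, by steps not stated in the labels or files used. It served to find tissues that share a scale (within 1%) and for the inhibin alpha values credited to it. Samples of embryos, fry, parr and juveniles were not analysed here. All 49 gene identifiers matched RefSeq's gene table of the assembly USDA_OmykA_1.1.

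Counts were fitted with edgeR 4.0.16 (quasi-likelihood, R 4.3.3) to all 70 samples with a coefficient per tissue and the 3 reference genes as offset. Contrasts set Testes against the unweighted mean of 14 tissue coefficients and against Ovaries. Copy ratios used limma 3.58.1 on log2(scaled count + 10). All tests are two-sided, adjusted by Benjamini-Hochberg, with calls under 0.05. Full statistics were given for called genes whose mean count reached 20 on the higher side, and the remaining genes by list; acvr1aa1, below that minimum, was named after its values were seen. The members, gene lists and tests were chosen with earlier results of these data known.

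Alternatives covered the scaling, background subtraction, a minimum count of 20, DESeq2 1.42.0, limma with pseudocounts of 1, 10 and 50, a robust fit, the samples in the fit, tissue sums, the replicate number as a block, and leaving out each sample or tissue. The single reference genes, the shared-scale tissues for copy ratios and edgeR's copy test were added after seeing the data. Replicates were no copies of each other: chi-squared per degree of freedom was 2.32 to 5.31 between Testes samples. On simulated counts of the 49 genes, Testes against the somatic mean, the test called 57.5% of genes raised by 1 and 17.5% of those lowered by 1 on the log2 scale, 85% and 70% at 2, and 1.67% of unchanged genes. Those counts were drawn and fitted with the same scale factors, so the rates leave out any error of the scale. Tables and figures used Python 3.11.15, pandas 2.3.3, scipy 1.17.1 and matplotlib 3.10.9.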

Additional observations from a re-analysis of the deposited data

Results flagged for a closer look

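For 11 genes the difference from the somatic mean was not the same in Testes and in Ovaries, by edgeR's test of the difference between the gonads, which share the somatic samples. The beta chain genes were inhbab1, with log2 differences from the somatic mean of 0.40 in Testes and 5.38 in Ovaries (difference −4.98), inhbbb1, with −1.19 and 1.34 (−2.54), and inhbaa2, with 1.80 and 0.13 (1.67). The type I receptors were acvr1aa1, with −1.48 in Testes and 1.40 in Ovaries (−2.89), acvr1aa2, with −1.76 and 0.73 (−2.49), and acvr1ba1, with 0.51 and 2.38 (−1.88). The type II receptors were acvr2ba1, with −0.61 in Testes and 2.12 in Ovaries (−2.74), acvr2ba2, with −1.19 and 1.37 (−2.56), acvr2bb, with −0.35 and 1.22 (−1.58), and acvr2ab2, with 1.13 and −0.35 (1.48). The common Smad smad4bb2 had −0.42 in Testes and 1.01 in Ovaries (−1.43). The adjusted p of these differences between the gonads ran from 0.000243 to 0.0311. The somatic mean drops out of this test, so these are the calls between Testes and Ovaries described above. After subtraction of the negative controls only acvr1aa1 and acvr1aa2 remained called. Without Ovaries 3 the calls of inhbaa2, acvr2ab2, acvr1ba1, acvr2ba2 and acvr2bb were lost. inhbab1 gave 201, 255 and 2.42 scaled counts in the Ovaries samples.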

How the results depend on the processing

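The counts of genes called depended most on the scale. Against the somatic tissues, 7 higher and 10 lower with the 3 reference genes became 18 higher with TMM factors, 4 and 0 with positive controls, 4 and 22 with ef1a and tbp, 21 and 0 with actb and ef1a, 27 and 0 with actb alone, 13 and 2 with ef1a alone and 2 and 43 with tbp alone. Tissue sums, with Testes as 1 unit without a replicate, gave 2 and 0. Subtracting negative controls left 4 lower, and so did limma with a pseudocount of 50. With tbp alone acvr1ab2 (−0.99), acvr1ba2 (−0.87), acvr2ab2 (−0.76), inhbaa2 (−0.077) and smad2a2 (−0.62) reversed. Of these acvr1ab2, acvr1ba2 and smad2a2 were called lower there. Leaving out 1 sample or tissue gave 6 to 9 higher and 2 to 11 lower. Against Ovaries, 2 higher and 9 lower became 0 higher with positive controls or tbp alone (18 lower), 1 with ef1a and tbp, with ef1a alone or with only the compared groups, and 4 and 5 with actb alone. Negative control subtraction gave 0 and 2, and leaving out 1 sample 0 to 2 and 6 to 9. Of the pairs 4 were lower. Unscaled counts added 2 higher pairs and the compared samples alone 3, and leaving out 1 sample gave 0 higher and 3 to 4 lower. The causes were not tested. With the replicate number as a block the counts stayed at 7 and 10, 2 and 9, and 0 and 4. Samples of the same number were not treated as pairs, since the labels do not name the fish. Their deviations correlated at a mean r of 0.0125 over 42 Testes and somatic pairs and −0.0064 over 84 pairs of unequal numbers. These values cannot show whether samples came from the same fish. Low counts limit the genes at background in Testes.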
